A study of Mus musculus with 24 samples.

Results

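Adar, Adarb1, Dhx9, Ilf2 and Qki encode RNA editing, unwinding and binding proteins with a role in setting the level of circular RNA, and they were chosen by name for that role. All 5 genes were found among the 17501 genes tabulated for mouse embryonic stem cells (mESC) and among the 16024 tabulated for neural progenitor cells (NPC), and all 5 passed the filter on low values in both. Qki is listed under its alternative symbol Qk and was matched by its identifier, ENSMUSG00000062078. RNA was sequenced from 6 Htt genotypes in both cell types, 2 libraries each, which made 24 in all. Htt encodes huntingtin, and a long CAG repeat in its coding sequence causes Huntington's disease. Cells without a targeted allele are called WT and cells in which Htt was knocked out KO. The other lines, heterozygous for a knock-in allele, are called Q20, Q50, Q92 and Q111 after their 20, 50, 92 or 111 CAG repeats; the growth protocol gives 89 repeats in place of 92. The mESC were grown with leukemia inhibitory factor on a layer of irradiated mouse fibroblasts, and the NPC were derived from mESC and kept in medium with FGF and EGF. Each genotype was represented by the line or lines of that name, and the sources used here do not say how many clones each came from, so a difference between genotypes is also a difference between lines. The tables hold gene-level expression, so a value counts all reads of a gene and gives no measure of circular RNA itself.

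A circular RNA forms when the splicing machinery joins the end of an exon back to the start of the same or an earlier exon. This is favoured when the introns on both sides pair with each other, for example through inverted repeats, or when a protein bound to both introns brings them together. Adar and Adarb1 encode the enzymes ADAR1 and ADAR2, which deaminate adenosine to inosine in double-stranded RNA and loosen such pairing. Dhx9 encodes an RNA helicase that unwinds paired intronic repeats, and it binds the interferon-induced form of ADAR1. Qki encodes quaking, which binds sites in flanking introns and promotes back-splicing, and which is best known in the nervous system for its part in myelin formation and glial development. Ilf2 encodes NF45, a nuclear protein that binds double-stranded RNA as part of a complex.

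Values are normalised CPM as the authors deposited them, a signal relative to the counted reads of each library after a further scaling between libraries, and each value below is a level on that scale unless called a log2 difference. The 2 tables were scaled separately, so levels in mESC and NPC stand side by side without a test. The reads recovered from the values numbered 58546211 to 81502284 in the mESC libraries and 48525333 to 118038952 in those of NPC. Adarb1 in NPC WT replicate 1 had the fewest reads of any of the 5 genes in any library, 643. Htt was read in every KO library, at 139 and 68.5 in mESC against 124 and 113 in WT, and at 100.1 and 94.9 in NPC against 137 and 177 in WT, and its KO against WT difference did not pass the test in mESC (log2 difference -0.28, adjusted p = 1.00) or NPC (-0.67, adjusted p = 0.0673). The mESC library labelled KO replicate 1 was thus not below WT, and directions drawn from it rest on its label.

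Marker genes set the NPC Q20 libraries apart. Of 12 pluripotency markers 7 were tabulated in NPC, and their summed level was 109 and 107 in Q20 against 5.32 to 34.4 in the 10 other NPC libraries. Pou5f1, the defining factor of pluripotent cells, stood at 90.1 and 87.4 in NPC Q20 and at most at 0.405 in the other NPC libraries, with 1 Q92 library at 0. The neural progenitor list, 11 of 12 markers tabulated, summed to 3178 and 3290 in NPC Q20 and to between 4789 and 7730 in the other NPC libraries. Its genes did not all go this way. In NPC Q20 against WT, 1 of the 11 passed the test as higher and 1 as lower (18.2% beside 14.5% of all tested genes). Msi1 stood at 37.1 and 31.5 in NPC Q20 and at 10.6 and 15.2 in Q111. Every comparison in which 1 of the 5 genes passed the test used the Q20 libraries of NPC. For the results of the 5 genes that passed, the trends and F tests are therefore also given without that line. Their differences from Q20 are set beside those from WT, and the Adarb1 difference of Q20 from WT has no value without that line. The trends of the gene lists below, and their differences from Q20, all include it. The part of these markers in the results was not tested.

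**Figure D1:**
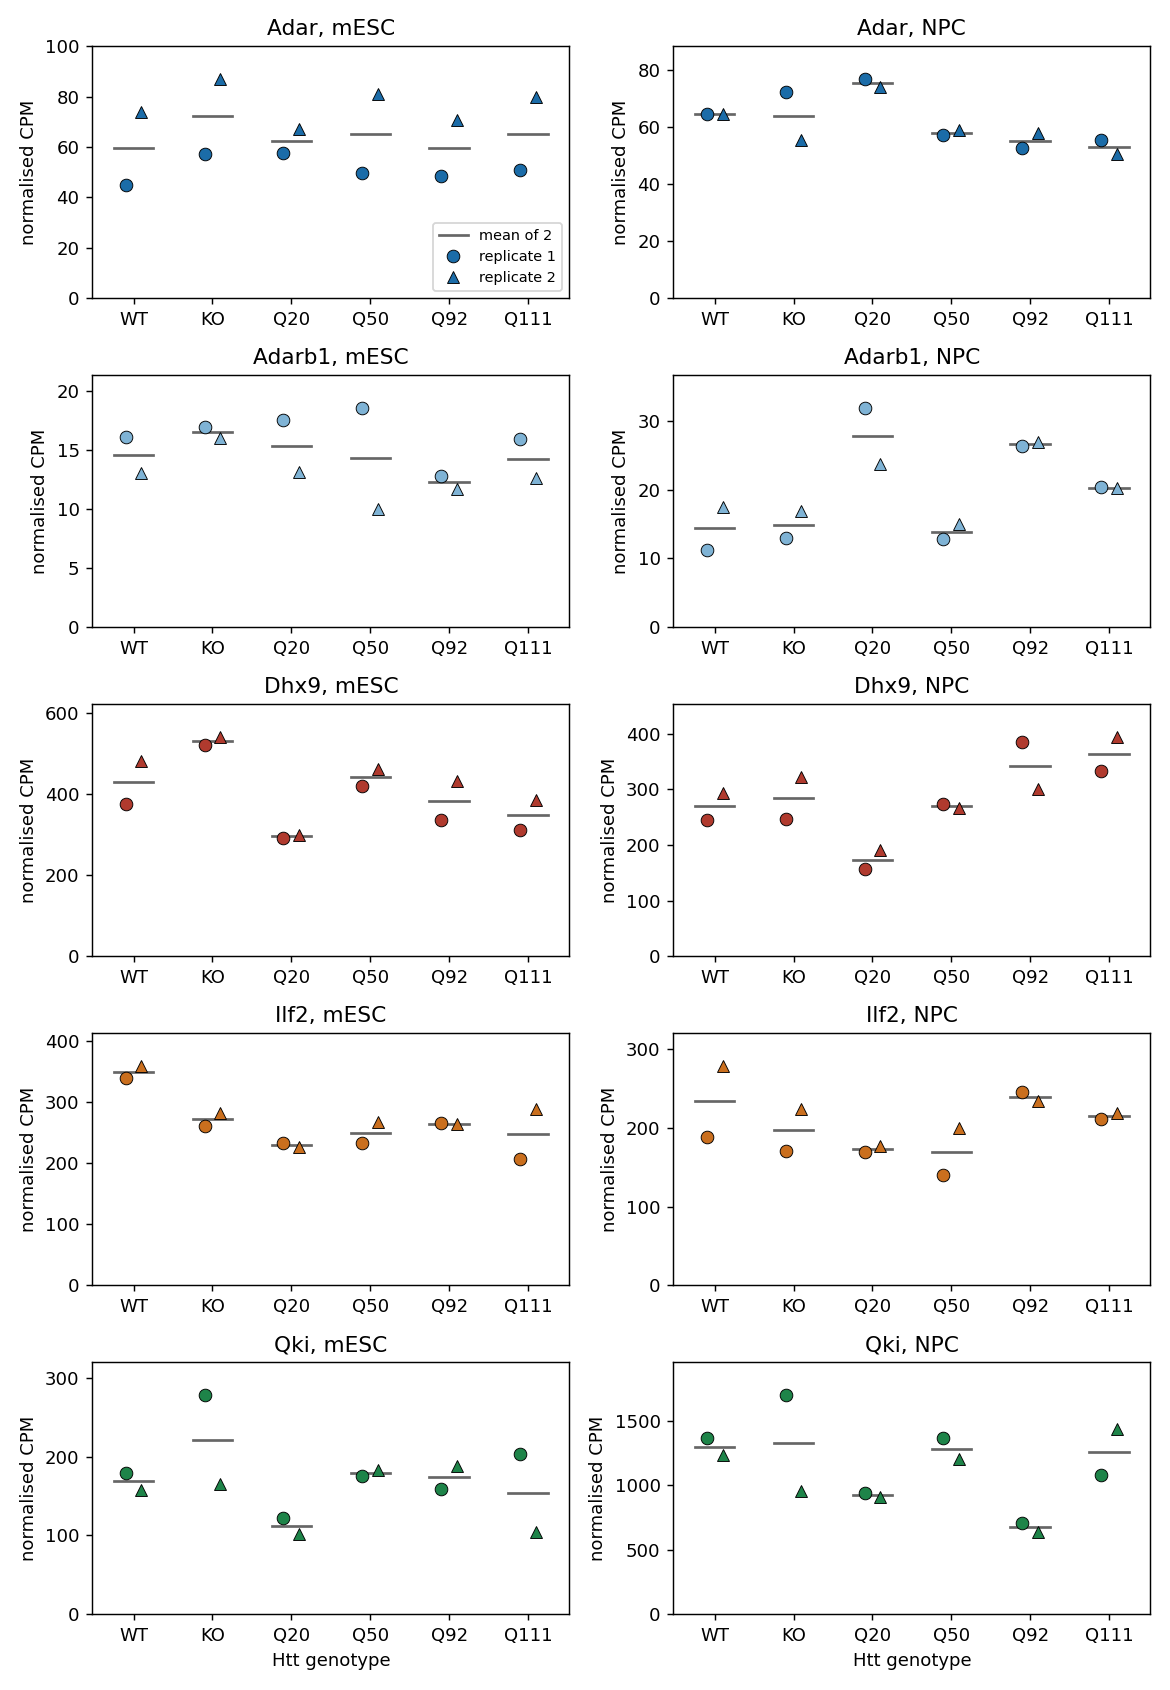
Normalised CPM (vertical axes, linear, starting at 0) of the 5 genes in all 24 libraries by Htt genotype, mESC at left and NPC at right; circles are replicate 1, triangles replicate 2 and bars the mean of 2. Qki is the gene whose level differs most between the tables, and Dhx9 is lowest in Q20 in both.

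Across the whole set, the 5 genes were followed through 16 comparisons, which made 80 tests with limma over all tested genes. Of these, 10 passed at a Benjamini-Hochberg adjusted p under 0.05, and 20 had an unadjusted p under 0.05. All 10 were in NPC, in 6 comparisons. In NPC Q111 against Q20, Dhx9 rose and Adar fell, while 28.3% of all tested genes were called. In Q92 against Q20, Dhx9 rose (25.8% of all genes called), and in Q50 against Q20 Adarb1 fell (18.8%). Adarb1 was higher in Q20 than in WT (14.5%). Over the CAG length trend, the slope across the 8 knock-in libraries given per 91 repeats, Dhx9 rose and Adar fell (22%). The 8 libraries come from 4 lines, and the libraries of a line are not independent lines. With 1 mean value per line the NPC trend called 0 of 13206 genes. Every NPC trend call given here, those of the gene lists included, thus rests on counting each library. An F test for any difference among the 4 knock-in lines called Dhx9, Adarb1 and Qki (41%). The count of 3 of 5 in that last test stands beside a background of 41%, and 2 of 5 in the trend beside 22%, so shares of this size are not particular to these genes. The comparisons with Q20 share its 2 libraries and are not independent of each other.

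No gene of the 5 passed the test in NPC KO against WT, where 1.42% of all genes were called (188, but 1577 without WT replicate 2 and 0 with only the libraries compared), with adjusted p from 0.759 to 0.982, and none had an unadjusted p under 0.05 with limma or with edgeR. Set against WT instead of Q20, none of the 5 was called in NPC Q50 (6.62% of all genes called), Q92 (8.66%) or Q111 (16.6%). In mESC none was called in any comparison without the replicate block, a fit that ignores the pairing of replicate numbers. With the block, Dhx9 and Ilf2 passed in Q20 against WT (10.6% of all genes called), as given below for each. The background without the block was near 0: 0.0144% of genes for KO against WT, 0.323% for Q20 against WT, 0.00719% for Q50 and likewise 0.00719% for Q92 against Q20, 0% for Q111 against Q20 and 0% for the trend, and 0.0719% for the F test. Where no gene at all was called, 374 genes in Q111 against Q20 and 358 in the trend had an unadjusted p under 0.05 with limma, and edgeR also called 0. At an unadjusted p under 0.05, limma and edgeR each found 2 of the 5 genes in mESC Q20 against WT, 1 in Q50 against Q20 and 0 in the other 5 mESC comparisons. Among all 13916 tested genes, limma gave such a p for 1716 in Q20 against WT and 887 in Q50 against Q20. Against WT, mESC Q50 (0.0144%), Q92 (0.0719%) and Q111 (0.316%) likewise gave 0 calls among the 5. The difference of the trend between NPC and mESC was called for none of the 5 (4.86% of all genes called). Dhx9 alone had an unadjusted p under 0.05 by limma, beside 2521 of all 12321 tested genes, and 1 gene did by edgeR. The difference of KO against WT was not called either (0.0406%). There 0 of the 5 had an unadjusted p under 0.05 by both tools, beside 680 of 12321 genes by limma.

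**Figure D2:**
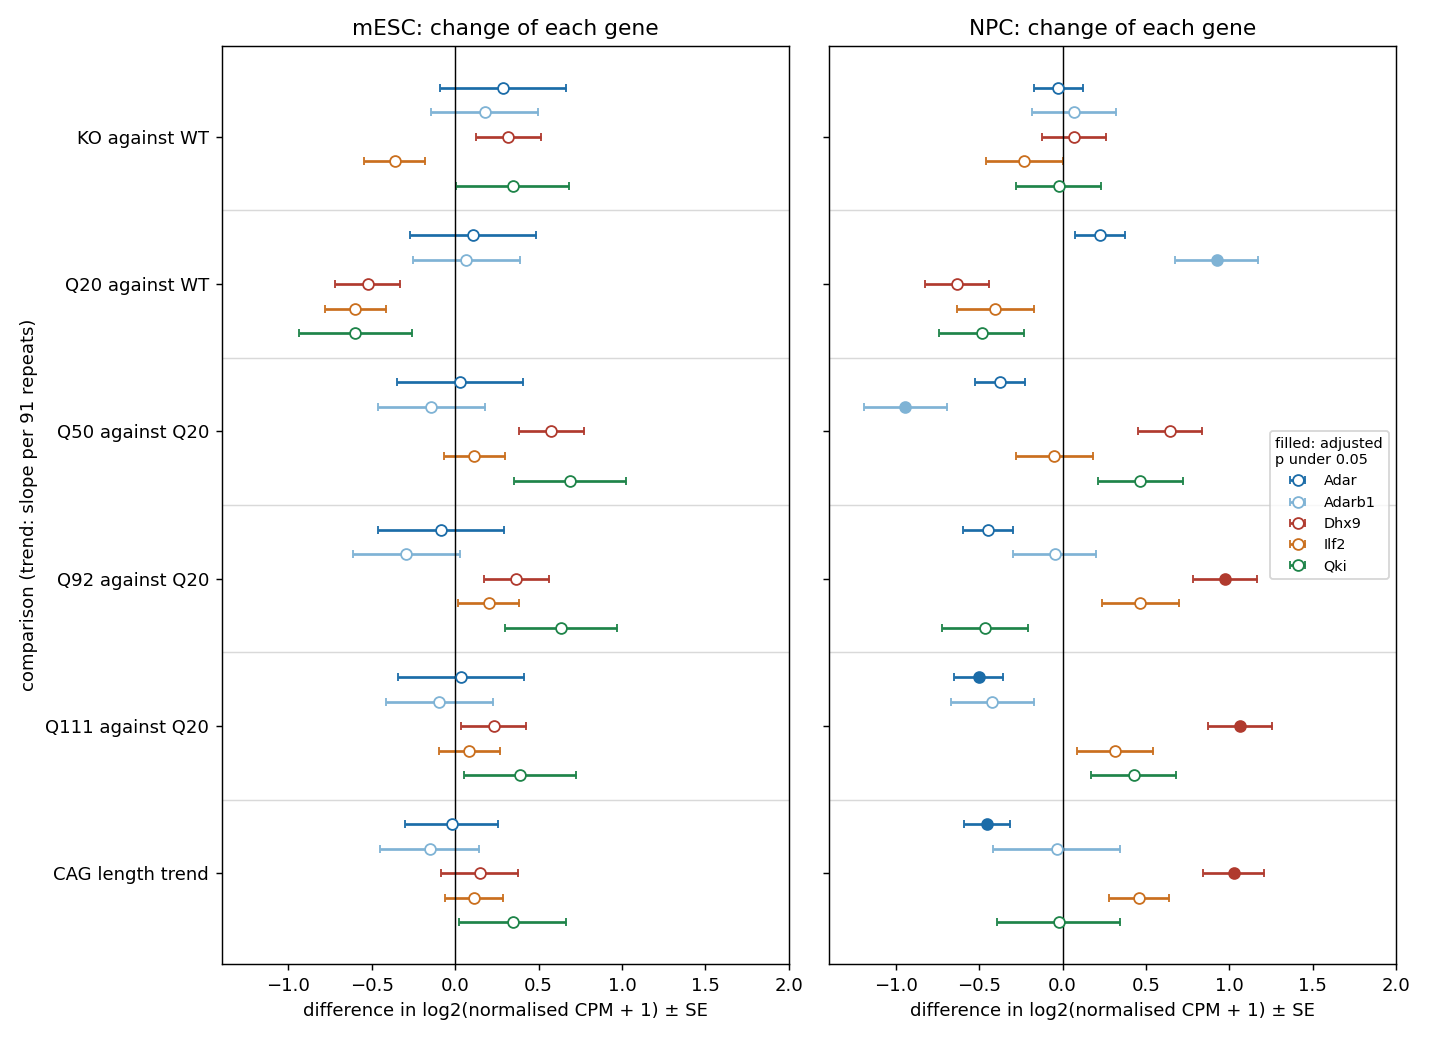
Difference in log2(normalised CPM + 1) with its standard error (horizontal axis) for each gene in 6 comparisons, mESC at left and NPC at right. Filled points passed at an adjusted p under 0.05 in the fit without the replicate block. Filled points appear in NPC alone: Dhx9 to the right in Q92 and Q111 against Q20 and in the trend, Adar to the left in Q111 against Q20 and the trend, and Adarb1 in the comparisons of Q20 with WT and of Q50 with Q20.

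The promoters of Adar and Dhx9 are shown because these 2 genes moved in opposite directions over the same NPC lines. RefSeq on GRCm38.p6 lists 3 start windows for Adar and 1 for Dhx9, each from 250 bases before to 50 after the start; the gene-level values do not separate the 3 starts of Adar. Adar can start from an interferon-inducible promoter that gives the long, largely cytoplasmic enzyme, and from constitutive promoters that give the short, nuclear form; which window serves which form was not assigned here. Capitals mark, on either strand, the interferon element core GAAANNGAA, the CCAAT box CCAAT, the GC box GGGCGG and the ETS core CCGGAAGT, and no matches overlapped in these windows.
Adar, window 2, chr3:89714988-89715287, plus strand: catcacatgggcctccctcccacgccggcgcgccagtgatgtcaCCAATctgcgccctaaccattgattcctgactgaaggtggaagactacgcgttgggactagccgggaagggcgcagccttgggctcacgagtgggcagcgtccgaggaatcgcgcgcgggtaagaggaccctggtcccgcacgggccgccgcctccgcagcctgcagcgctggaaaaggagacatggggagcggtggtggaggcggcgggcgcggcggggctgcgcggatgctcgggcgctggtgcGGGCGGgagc
Adar, window 3, chr3:89730468-89730767, plus strand: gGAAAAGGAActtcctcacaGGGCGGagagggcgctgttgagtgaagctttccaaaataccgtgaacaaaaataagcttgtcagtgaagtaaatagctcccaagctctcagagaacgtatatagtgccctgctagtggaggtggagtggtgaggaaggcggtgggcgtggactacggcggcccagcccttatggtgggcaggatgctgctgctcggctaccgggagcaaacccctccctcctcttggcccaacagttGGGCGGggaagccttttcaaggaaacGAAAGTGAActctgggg
Dhx9, chr1:153487611-153487910, minus strand: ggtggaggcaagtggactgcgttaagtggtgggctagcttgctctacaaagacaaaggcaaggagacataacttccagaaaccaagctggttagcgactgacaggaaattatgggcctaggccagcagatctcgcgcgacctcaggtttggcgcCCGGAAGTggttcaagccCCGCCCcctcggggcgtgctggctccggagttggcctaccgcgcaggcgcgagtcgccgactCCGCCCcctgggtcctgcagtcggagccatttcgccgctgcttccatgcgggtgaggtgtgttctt
The last Adar window held 2 matches to the interferon element core, a motif present in 8.56% of 32851 such windows, and 2 GC boxes (35.7% of windows hold at least 1). The one before it held 1 CCAAT box (37.4%) and 1 GC box. Dhx9 held 1 ETS core (3.89%) and 2 GC boxes. A match describes the letters and does not show that a factor binds.

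Dhx9 (ENSMUSG00000042699, chr1:153455758-153487660, minus strand, GRCm38) has 9 annotated transcripts and up to 28 exons. In NPC its levels were 156 and 191 in Q20, 274 and 267 in Q50, 385 and 300.1 in Q92, and 333 and 394 in Q111, beside 245 and 293 in WT and 247 and 322 in KO. Both Q20 libraries lay below all 10 others, and the group means rose with each longer repeat. The mean in Q111, 364 ± 43.5 (SD, n = 2), was 2.10 times that in Q20, 173 ± 24.3 (SD, n = 2). The log2 difference was 1.07 (SE 0.19, adjusted p = 0.00531) for Q111 and 0.97 (SE 0.19, adjusted p = 0.00773) for Q92, while Q50, with 0.64, missed the threshold (adjusted p = 0.0510). The trend was 1.03 per 91 repeats (SE 0.18, adjusted p = 0.00722).

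Measured from WT, no Dhx9 difference passed. Q20 gave a log2 difference from WT of -0.63 (adjusted p = 0.0651), and Q111 gave 0.43 (SE 0.19, adjusted p = 0.153). Without the Q20 line the Dhx9 trend was 0.64 with an adjusted p of 0.120, and it was 0.307 when each line entered as 1 mean. The F test gave an adjusted p of 0.00956, lost without the Q20 line (0.255) and without Q20 replicate 1 (0.0708). Over 23 alternatives that of the trend ran from 0.00347 to 0.307 and passed in 21. The Q111 call held without each of its 4 libraries in turn (highest adjusted p 0.0481). The Q92 call was lost without Q20 replicate 1 (0.0651) and without Q92 replicate 1 (0.0651).

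In mESC, Dhx9 was also lowest in Q20, at 293 and 299, and neither library reached the lowest of the other groups. WT stood at 375 and 483, KO at 522 and 542, Q50 at 420 and 464, Q92 at 336 and 434, and Q111 at 313 and 386. KO was the highest group and did not overlap the next. Levels did not follow the repeat length here, since Q50 was the highest of the 4 knock-in lines. Q20 against WT gave a log2 difference of -0.52 (SE 0.20, adjusted p = 0.306). With the replicate number as a block, which pairs libraries of the same number, the same difference had a standard error of 0.12 and an adjusted p of 0.0332, in a fit that called 10.6% of all genes; the adjusted p ran from 0.0332 to 0.680 over 13 alternatives. The NPC trend exceeded the mESC trend by 0.88 (SE 0.30, adjusted p = 0.112).

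**Figure D3:**
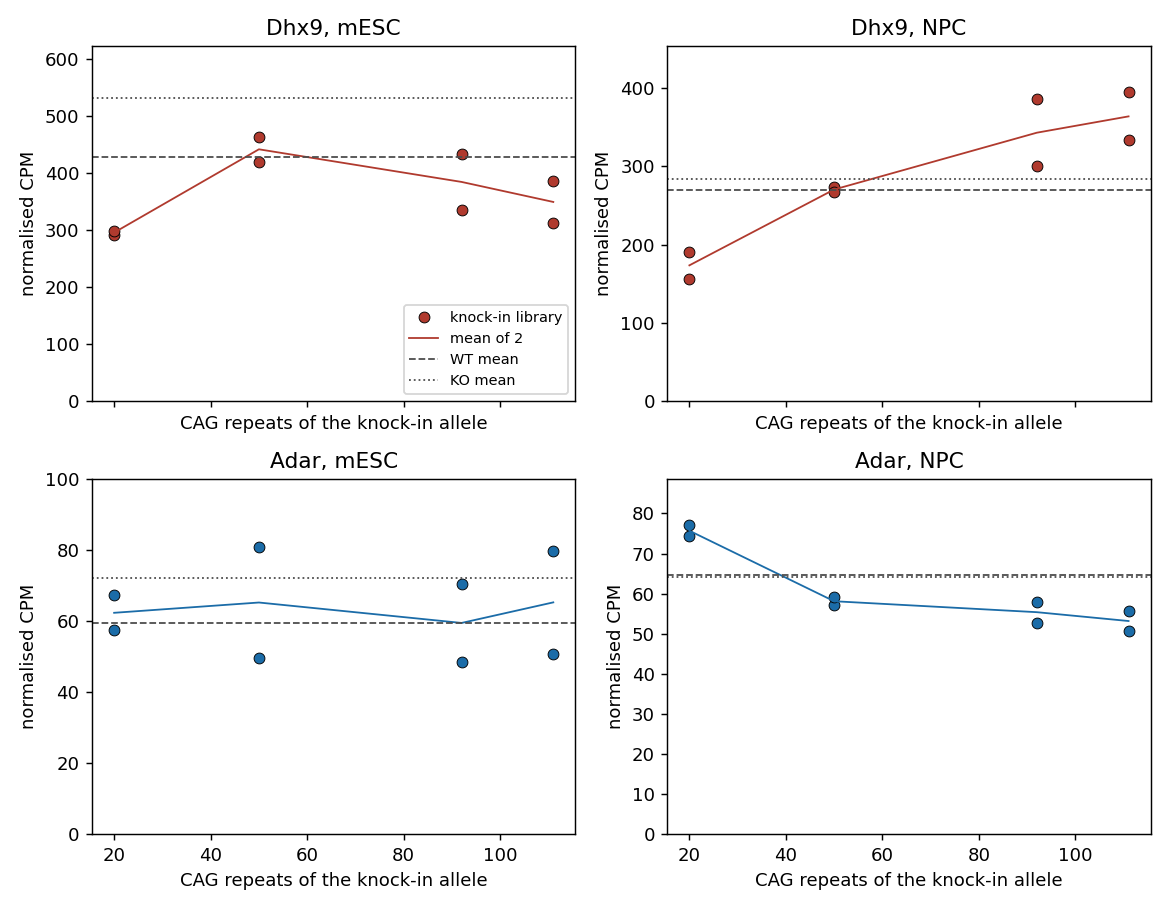
Normalised CPM (vertical axes, linear, starting at 0) of Dhx9 and Adar in the knock-in libraries against the CAG repeats of the knock-in allele, with the line through the mean of 2 and the WT and KO means as horizontal lines. In NPC, Dhx9 climbs from 156 and 191 at 20 repeats to 333 and 394 at 111 repeats, and Adar drops from 77.0 and 74.3 to 55.6 and 50.8; in mESC neither gene is ordered by length.

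Adar (ENSMUSG00000027951, chr3:89715022-89753446, plus strand) has 9 annotated transcripts, and its span overlaps Chrnb2 on the other strand. Whether counting used strand is not given in the sources used here, so reads from the overlap cannot be told apart. In NPC, Adar stood at 77.0 and 74.3 in Q20, 57.1 and 59.1 in Q50, 52.8 and 58.0 in Q92, and 55.6 and 50.8 in Q111. WT gave 64.7 and 64.5, and KO 72.5 and 55.6. Both Q20 libraries were above all 10 others, the reverse of Dhx9. Q111, at 53.2 ± 3.40 (SD, n = 2), was 0.702 times Q20, at 75.7 ± 1.92 (SD, n = 2), a log2 difference of -0.50 (SE 0.15, adjusted p = 0.0375). Q92 against Q20, with -0.45 (adjusted p = 0.0582), and Q50 against Q20, with -0.38 (adjusted p = 0.123), missed the threshold.

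The Adar trend in NPC was -0.45 per 91 repeats (SE 0.14), with an adjusted p of 0.0478 that lay just under the threshold. It was lost without any of the 8 knock-in libraries except Q50 replicate 1, with adjusted p up to 0.186 (without Q20 replicate 1) and a trend between -0.51 and -0.38. The Q111 call was lost without each of its 4 libraries, with adjusted p from 0.103 to 0.179. Without the Q20 line the trend was -0.18 (adjusted p = 0.545, the highest of a range that began at 0.0196 over 23 alternatives). Q111 against WT gave a log2 difference of -0.28 (adjusted p = 0.223).

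In mESC the spread of Adar followed the replicate number and not the genotype. The replicate 1 libraries of the 6 genotypes held 45.0 to 57.5 and the replicate 2 libraries 67.3 to 87.1, with no overlap, and replicate 2 was higher in 6 of 6 genotypes. The KO group, at 57.2 and 87.1, had the highest mean, and WT, at 45.0 and 74.0, the lowest, yet all neighbours in the order of means overlapped. Adarb1 went the other way, with replicate 2 lower in 6 of 6, and Dhx9 was higher in replicate 2 in 6 of 6. Across all genes, the replicate 1 minus replicate 2 differences of any 2 mESC genotypes correlated at 0.250 to 0.547. No such split of Adar was seen in NPC, where replicate 2 was higher in 2 of 6 genotypes. What the replicate numbers stand for is not given in the labels, and the cause was not tested.

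**Figure D4:**
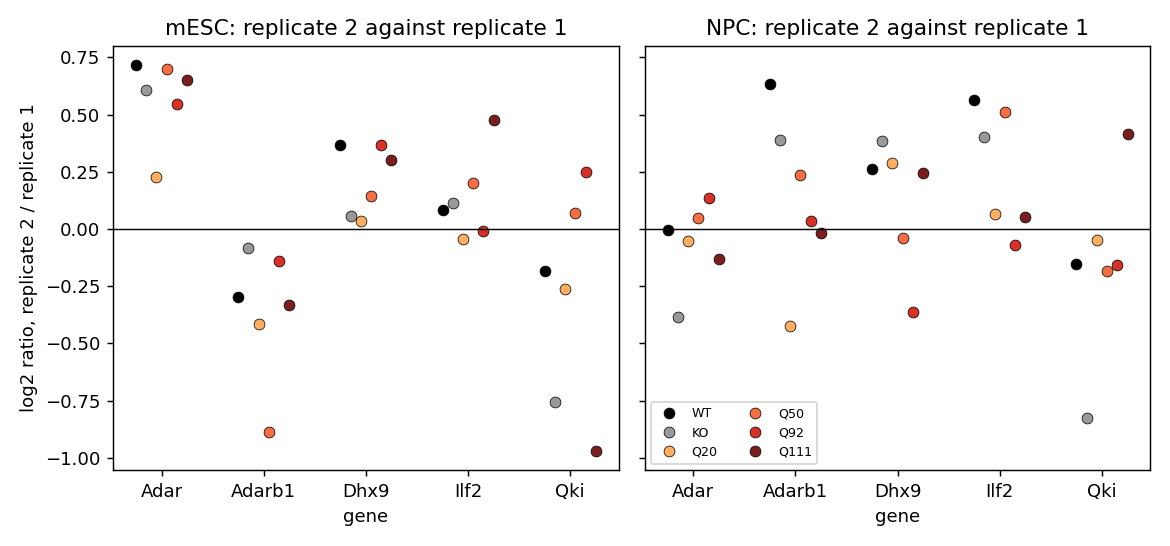
Log2 ratio of replicate 2 to replicate 1 (vertical axis) of normalised CPM for each gene, 1 point per genotype, mESC at left and NPC at right; 0 means equal replicates. All 6 Adar and Dhx9 points in mESC lie above 0 and all 6 Adarb1 points below it, and in NPC each gene has points on both sides.

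A list of 22 interferon-response genes, 17 of them tested in NPC, gives the wider setting of Adar, since its inducible form is itself a target of interferon. In Q20 against WT 6 of 17 rose (35.3% called, beside 14.5% of all genes) and none fell, with a median log2 difference of 0.75 against -0.02 over all genes, while Adar differed by 0.23 (adjusted p = 0.401). In Q111 against Q20 none rose and 6 fell (35.3% beside 28.3%, median -0.40, all genes 0.03). In Q92 against Q20 none rose and 11 fell (64.7% beside 25.8%, median -0.84). In Q50 against Q20, where Adar had a log2 difference of -0.38 that did not pass, 2 rose and 3 fell (29.4% beside 18.8%, median 0.27). Over the NPC trend 3 fell, 17.6% beside 22% of all genes (median -0.66, all genes 0.04), namely Ifi44 (-1.91, adjusted p = 0.00424), Irf9 (-1.05, adjusted p = 0.0411) and Usp18 (-1.38, adjusted p = 0.0497). In NPC KO against WT 2 rose (11.8% beside 1.42% of all genes), Ifi35 (1.73, adjusted p = 0.00217) and Bst2 (1.92, adjusted p = 0.0212). Adar did not pass there (-0.02). Over the NPC libraries Ifi44 lay between 0.0368 and 3.17, Usp18 between 0.578 and 4.24, and Ifi35 between 0.215 and 5.72. A fold is poorly determined at such low levels. Irf9 encodes the DNA-binding subunit of the interferon-stimulated complex and Usp18 a brake on interferon receptor signalling. In mESC none of 17 was called in the trend or in KO against WT. In mESC Q20 against WT 1 of 17 rose (5.88% beside 0.323% of all genes), with a median of 0.59 against -0.04 over all genes.

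Adarb1 (ENSMUSG00000020262, chr10:77290726-77418270, minus strand) has 13 annotated transcripts and the lowest level of the 5 genes per kilobase of exon in both tables, 1.29 in mESC and 1.75 in NPC. It had 31.9 and 23.8 in NPC Q20, 26.4 and 27.0 in Q92, and 20.4 and 20.2 in Q111. Q50 gave 12.8 and 15.0, close to WT with 11.3 and 17.5 and KO with 12.9 and 16.9. The libraries thus formed a low set (WT, KO and Q50, overlapping each other) with Q111 above it and Q92 and Q20 above Q111, an order unrelated to repeat length. Q20 was 1.94 times WT (log2 difference 0.92, SE 0.25, adjusted p = 0.0425), and Q50 was 0.499 times Q20 (-0.94, SE 0.25, adjusted p = 0.0319). Q92 against Q20 differed by -0.05 (adjusted p = 0.908), and Q50 against WT by -0.02 (adjusted p = 0.981). The trend, -0.03 (adjusted p = 0.959), was near 0, as the levels did not go one way with length, and the F test gave an adjusted p of 0.0434.

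These Adarb1 calls rested on few libraries. The Q50 call was lost without each of its 4 libraries (adjusted p from 0.0581 to 0.202), and the call for Q20 against WT without WT replicate 1 (0.107), Q20 replicate 1 (0.252) or Q20 replicate 2 (0.0712). The F test was lost without each of the 8 knock-in libraries, with adjusted p from 0.0603 to 0.186, and without the Q20 line (0.0823), an alternative added after the markers were seen; it ran from 0.00842 to 0.186 over 18 alternatives. Against WT, Q92 was 0.88 higher (SE 0.25, adjusted p = 0.0671). In mESC, Adarb1 stayed between 10.03 and 18.6 and all neighbouring groups overlapped.

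Editing targets and partners were followed as lists. Of 20 transcripts with known editing sites 18 were tested in NPC. Cadps, a factor in vesicle release, fell over the trend (-3.42, adjusted p = 0.00548) and in KO against WT (-1.19, adjusted p = 0.0277), with no other call in either. Cadps levels were low in both groups of the latter, 0.266 and 0.406 in KO and 2.33 and 1.77 in WT. For the trend, 1 of 18 is 5.56%, below the 22% of all genes called, and in KO against WT it stands beside 1.42%. In Q20 against WT 5 rose and 4 fell (50% beside 14.5%), and in Q50 against Q20 6 rose and 3 fell (50% beside 18.8%). In Q92 and in Q111 against Q20, 3 rose and 5 fell (44.4% beside 25.8% and 28.3%). The F test called 13 of 18 (72.2% beside 41%). Of 12 partners and relatives of the editing enzymes 10 were tested, and 3 rose and 1 fell over the NPC trend (40% beside 22% of all genes). Adarb2, the catalytically inactive relative of both enzymes, fell by 1.86 (adjusted p = 0.0408), from 6.46 and 3.86 in Q20 to 0.0948 and 0.0567 in Q111, levels at which a fold is poorly determined. No partner or target was called in the mESC trend or KO against WT. In mESC Q20 against WT 1 of 16 tested targets rose (6.25% beside 0.323% of all genes). Editing itself was not measured.

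Qki (chr17:10202601-10319854, minus strand) has 6 annotated transcripts and was the gene of the 5 with the widest gap between the tables, with a mean of 1129.95 in NPC and 168 in mESC, a ratio of 6.73. Per kilobase of exon it ranked first of the 5 in NPC, at 79.3 against 29.6 for Dhx9, 23.9 for Ilf2, 7.62 for Adar and 1.75 for Adarb1. In mESC it stood at 11.8, behind Dhx9 at 42.2 and Ilf2 at 31.3 and before Adar at 7.89. The NPC mean of Qki exceeded that of 99.6% of the genes in the table. In bulk RNA, more cells that express a gene and more RNA per cell cannot be told apart.

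In NPC, Qki was lowest in Q92, at 710.2 and 636, then in Q20, at 944 and 912, with no overlap between these groups or with the next. Q50 had 1366 and 1203, Q111 1080.4 and 1441, WT 1369 and 1233, and KO 1702 and 960.2. The KO pair spanned all other groups except Q92 and Q20. Only the F test among the knock-in lines called Qki, with an adjusted p of 0.0487; it was lost without each of the 8 libraries (0.0636 to 0.183) and without the Q20 line (0.0713), and ran from 0.00571 to 0.183 over 18 alternatives. The pairwise differences from Q20 were 0.47 for Q50 (adjusted p = 0.259), -0.46 for Q92 (0.210) and 0.43 for Q111 (0.236), each with SE 0.26, and the trend was -0.02. Q92 against WT was -0.95 (SE 0.26, adjusted p = 0.0569).

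In mESC, Qki had its lowest mean in Q20, at 122 and 101, but Q111 spread from 203 to 104 and overlapped it. WT stood at 179 and 158, KO at 278 and 165, Q50 at 175 and 183, and Q92 at 159 and 189. Replicate 1 was above replicate 2 in WT, KO, Q20 and Q111, most widely in KO and Q111, and below it in Q50 and Q92. No comparison called Qki in mESC.

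Quaking is a regulator of glial genes, so glial and progenitor markers were read beside it. The 10 astrocyte markers summed to 5707 and 5399 in NPC Q20, 4885 and 3876 in Q50, 1498 and 1765 in Q92, and 1401 and 1501 in Q111, beside 5914 and 3910 in WT and 4362 and 2571 in KO. Over the trend 6 of 10 fell and none rose (60% beside 22% of all genes, median -3.11, all genes 0.04). Aqp4, the astrocyte water channel, was at -6.21 (adjusted p = 0.000287). Of the oligodendrocyte and myelin list 11 of 13 were tabulated, with Mobp and Mal under 1 in every NPC library, and sums ran from 233 (Q92) to 942 (Q111). Of 9 tested, 2 rose over the trend and none fell (22.2% beside 22% of all genes), while the median of the list was -0.72. The 2 were Cspg4 (2.47, adjusted p = 0.00291) and Olig2 (2.91, adjusted p = 0.00677), both markers of oligodendrocyte precursors. Cspg4 stood at 5.17 and 4.26 in Q20 and at 39.0 and 39.9 in Q111. Its levels were 32.9 and 43.2 in WT and 92.1 and 61.5 in KO, so Q111 was not above either. In Q111 against Q20, 2 of the 9 rose and 3 fell (55.6% beside 28.3%). In Q92 against Q20, 1 of the 9 rose and 6 fell (77.8% beside 25.8%). Qki was lowest in Q92, where the astrocyte sum and the oligodendrocyte and myelin sum were both low. It was higher in Q111, where the astrocyte sum was similarly low and the oligodendrocyte and myelin sum was 520 and 942. Qki was next lowest in Q20, at 944 and 912, where the astrocyte sum was high, at 5707 and 5399. The part of these markers in the levels of the 5 genes was not tested.

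Ilf2 (ENSMUSG00000001016, chr3:90476126-90488379, plus strand) has 6 annotated transcripts and overlaps Snapin on the other strand, with the same limit on strand as Adar. In mESC it was highest in WT, at 339 and 359, and both WT libraries exceeded all 10 others. KO had 260.5 and 282, Q20 233 and 227, Q50 232 and 267, Q92 266 and 264, and Q111 207 and 288. The log2 difference of Q20 from WT was -0.60 (SE 0.18, adjusted p = 0.219). With the replicate block it had an SE of 0.13 and an adjusted p of 0.0335, over a range of 0.0335 to 0.588 in 13 alternatives. The other differences from WT were -0.36 for KO (adjusted p = 1.00), -0.48 for Q50 (0.626), -0.40 for Q92 (0.908) and -0.51 for Q111 (0.330), of one sign but none past the threshold. Summed feeder fibroblast markers, 11 of 12 tabulated, were 25.9 to 38.6 in the WT and KO libraries of mESC and 106 to 167 in the knock-in libraries, and their part in the result was not tested.

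In NPC, Ilf2 levels overlapped between all neighbouring groups, from 140.2 in Q50 replicate 1 to 279 in WT replicate 2. The trend was 0.46 (SE 0.18, adjusted p = 0.105) and the F test gave 0.211. The NPC KO against WT difference of Ilf2 was -0.23 (adjusted p = 0.759).

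Over the 12 NPC libraries, which share scaling and come in pairs of a genotype, the log2 levels of Adar and Dhx9 had a Pearson r of -0.92, and of -0.85 over the 10 libraries without Q20. Adarb1 and Qki had -0.77 (-0.81 without Q20), and Dhx9 and Ilf2 0.59 (0.53). Other pairs moved with the Q20 libraries: without them Adarb1 and Dhx9 went from -0.12 to 0.77, Adar and Adarb1 from 0.06 to -0.61, and Adarb1 and Ilf2 from 0.30 to 0.68. In mESC the Adar and Dhx9 pair had 0.48, of the other sign. There both genes were higher in replicate 2 in 6 of 6 genotypes, and r over the 12 libraries includes that replicate difference. The same holds for the closest genes in mESC given below. The part of the replicate difference in these values was not tested. The genes most like each member were found by the same measure among genes with a mean of at least 5. In NPC they were Eif4g2 (0.98) and Taf1 (0.96) for Dhx9, Cbr1 (0.95) and 2210016L21Rik (0.94) for Adar, Nr4a1 (0.96) and Hdgfl2 (0.95) for Adarb1, Stx7 (0.91) and Inpp4b (0.91) for Qki, and Scarb1 (0.90) and Snx1 (0.90) for Ilf2. In mESC they were Ahctf1 (0.96) and Ubr1 (0.95) for Dhx9, Irak3 (0.98) and Mdn1 (0.96) for Adar, Dvl1 (0.89) and Serhl (0.87) for Adarb1, Csrp2 (0.92) and Apopt1 (0.89) for Qki, and Gm6871 (0.91) and Fam219b (0.91) for Ilf2. No gene was among the closest in both cell types.

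Other genes of the circular RNA pathway were read as lists beside the 5. Of 22 other back-splicing factors 21 were tested in NPC, and over the trend 8 rose and none fell (38.1% beside 22% of all genes), with a median of 0.47 against 0.04 over all genes. In Q111 against Q20, 7 of the 21 rose and 2 fell (42.9% beside 28.3%). Mbnl1, muscleblind, which binds its own introns and circularises its own exon, rose by 1.48 over the trend (adjusted p = 0.00148). It went from 62.7 and 69.7 in Q20 to 95.5 and 108.6 in Q50, 198.0 and 163.8 in Q92, and 170.1 and 180.1 in Q111. WT stood at 78.1 and 139.7 and KO at 127.6 and 179.3, a range that Q111 only partly exceeded. Of 15 export and turnover genes 7 rose and 1 fell over the trend (53.3%, median 0.51). Xpo4, an exportin, rose by 0.79 (adjusted p = 0.00506). Of 17 tested proteins with double-stranded RNA-binding domains 2 rose and 1 fell (17.6%, below the share of all genes; median 0.20); Drosha, the microRNA-processing nuclease, rose by 0.69 (adjusted p = 0.0314), and the fall was that of Adarb2. In NPC KO against WT none of these 3 lists had a call, and in mESC none had a call in the trend or KO against WT.

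The remaining marker lists in the NPC trend stand beside the 22% of all genes called. Of 11 tested feeder fibroblast genes 7 fell (63.6%), Thy1 with the smallest p (-2.32, adjusted p = 0.00122). Of 11 progenitor genes Nes rose (1.28, adjusted p = 0.0432) and 2 fell (27.3% called), Msi1 with the smaller p (-1.34, adjusted p = 0.00629). Of 12 neuronal genes Dcx alone was called (8.33%) and fell (-4.19, adjusted p = 0.00434). Of 5 tested pluripotency genes Klf4 rose (1.99, adjusted p = 0.0302), and Nanog (-3.17, adjusted p = 0.0176) and Pou5f1 (-5.44, adjusted p = 0.0405) fell (60% called). In NPC KO against WT, where 1.42% of all genes were called, Aldh1l1 fell among astrocyte markers (-2.01, adjusted p = 0.0437, 10% of the list). Col3a1 fell among fibroblast markers (-1.07, adjusted p = 0.0242, 9.09%), and the oligodendrocyte, progenitor, neuronal and pluripotency lists had no call. In mESC no marker list had a call in the trend or KO against WT. In mESC Q20 against WT 3 of 10 tested feeder fibroblast genes rose (30% beside 0.323% of all genes), and the other marker lists had no call. Irf9, Usp18, Bst2, Olig2 and Pou5f1 were named after their values were seen; the other genes of the lists are those with the smallest p in each direction. The trend without the Q20 line called 1880 genes in NPC, against 2909 with it.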

How the data were processed

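Gene-level RNA-seq of 24 libraries was analysed, 2 for each of 12 combinations of genotype and cell type. The authors deposited 1 table per cell type whose values they call CPM. The column totals differ between libraries, so these normalised CPM are treated as a scaled signal deposited by the authors. CASAVA 1.8, STAR and the build GRCm38.p6 are named per the submitters' processing notes; the counting tool, annotation and use of strand are not given in the sources used here. Columns headed Q89 were matched to the samples titled Q92.

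Each value was a whole multiple of 1 read (100% of values within 0.01 read), which gave the depths. The main test was limma 3.58.1 (R 4.3.3) on log2(value + 1), two-sided, over genes with a value of at least 1 in at least 2 of 12 libraries (13916 in mESC, 13206 in NPC, 12321 in both), with Benjamini-Hochberg adjustment over all of them and a threshold of 0.05. Fold changes are on that log2 scale, which understates changes of low genes. The 6 groups of a table shared 1 estimate of spread. The trend used the 8 knock-in libraries as if each were independent, though they come from 4 lines. Alternatives were other pseudocounts, filters and scalings, the replicate block, edgeR 4.0.16 on the recovered reads, fewer libraries or lines, other codings of length and WT as reference. With 2 libraries a group, p-values measure the spread between these samples only. The labels do not say that equal replicate numbers share a source. Replicate differences of mESC genotypes correlated at a median of 0.463 over 15 pairs of genotypes, all above 0.1. On these values alone, the numbers were taken to pair the mESC libraries. The main mESC fits nevertheless left this pairing out. Only the fits with the replicate block used it, and their mESC calls are given beside the main ones. In NPC the correlations ran from -0.0495 to 0.467 (KO with WT), with a median of 0.000230 and not all above 0.1. The numbers were therefore not taken as pairs in NPC. Promoter windows and motifs are from RefSeq; coordinates of genes are from the GRCm38 annotation. The fitting steps were tested on simulated data. Named genes were the 5 members, Htt, the 2 most similar genes per member and table, and, per list, the call with the smallest p in each direction in KO against WT and in the trend. The members and lists were chosen with earlier results of these data known. Some genes of the lists are not reported here by name.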

Additional observations from a re-analysis of the deposited data

Results flagged for a closer look

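Qki moved in opposite directions between the cell types when Q92 was compared with Q20. In mESC both Q92 libraries lay above both Q20 libraries, with a log2 difference of 0.64 (SE 0.34, adjusted p = 0.985, limma). In NPC both Q92 libraries lay below both Q20 libraries, with a log2 difference of -0.46 (SE 0.26, adjusted p = 0.210). Neither difference passed the threshold, and the difference between the cell types was not tested.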

How the results depend on the processing

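Of 1300 values for single genes under an alternative, 1162 kept their direction and their side of the threshold, 53 lost and 15 gained a call, and 70 changed sign; the cause was not tested. The count of the 5 genes called changed in these comparisons. In NPC Q20 against WT it went from 1 to 0 with a mean of at least 5 and with only the libraries compared. In NPC Q50 against Q20 it went from 1 to 2 with median-of-ratios scaling and 4 with only the libraries compared, and in Q92 against Q20 from 1 to 2 with edgeR, median-of-ratios scaling or quantile normalization and 4 with only the libraries compared. In NPC Q111 against Q20 it went from 2 to 3 with only the libraries compared. With WT as reference, the counts for Q50, Q92 and Q111 were 0. The NPC trend went from 2 to 1 with the replicate block, without the Q92 line or without the Q111 line, and to 0 with 1 mean value per line or without the Q20 line; the F test went from 3 to 0 without the Q20 line, an alternative chosen after seeing the data, to 2 with no filter, a mean of at least 5 or edgeR, and to 4 with quantile normalization or only the libraries compared. With the replicate block, mESC Q20 against WT went from 0 to 2 of the 5 genes and from 45 to 1475 genes in all; it changed no other call of the 5 genes in mESC, though whole-table counts rose from 10 to 222 in the F test, from 1 to 137 in Q50 and from 1 to 64 in Q92 against Q20, and from 2 to 16 in KO against WT. In NPC, where not all genotypes correlated, the block gave an adjusted p of 0.0858 for the Adar trend and left 2 of 3 calls in the F test. Leaving out 1 library at a time gave counts of 0 to 1 for NPC Q20 against WT, 0 for Q50, 0 to 1 for Q92 and 1 for Q111 against Q20, 0 to 1 for the F test and 1 to 2 for the trend.

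Signs changed for values near 0 or resting on 1 line. With quantile normalization, Adar in mESC was -0.0133 for Q50 and -0.0103 for Q111 against Q20. Without the Q20 line the mESC trend was -0.00682 for Ilf2, 0.00407 for Adarb1, -0.50 for Dhx9 and -0.39 for Qki, and without the Q92 line 0.0306 for Adar. The NPC trend of Adarb1 was 0.97 without the Q20 line and 0.0712 without the Q111 line. That of Qki was 0.00772 with length 89, 0.00419 with the log2 of the length, 0.147 without the Q50 line and 0.356 without the Q92 line. The trend difference of Adarb1 was -0.00126 with the log2 of the length, -0.150 without the Q50 line and -0.175 without the Q92 line, and that of Qki 0.00878 without the Q20 line and 0.0904 without the Q92 line.

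Leaving out 1 library at a time turned the sign of these log2 differences, given from lowest to highest. In mESC KO against WT the ranges were Adar -0.0663 to 0.64, Htt -0.78 to 0.22, Qki -0.0331 to 0.72. In mESC Q20 against WT the ranges were Adarb1 -0.13 to 0.26, Adar -0.25 to 0.46. In mESC Q50 against Q20 the ranges were Adarb1 -0.56 to 0.27, Adar -0.32 to 0.37. In mESC Q92 against Q20 the ranges were Adar -0.35 to 0.18. In mESC Q111 against Q20 the ranges were Ilf2 -0.15 to 0.32, Adarb1 -0.29 to 0.0984, Adar -0.29 to 0.36, Qki -0.0945 to 0.87. In mESC CAG length trend the ranges were Adarb1 -0.30 to 0.0135, Adar -0.23 to 0.13, Dhx9 -0.0109 to 0.30. In NPC KO against WT the ranges were Ilf2 -0.51 to 0.052, Adarb1 -0.23 to 0.37, Adar -0.21 to 0.16, Dhx9 -0.12 to 0.26, Qki -0.44 to 0.39. In NPC Q50 against Q20 the ranges were Ilf2 -0.30 to 0.20. In NPC Q92 against Q20 the ranges were Adarb1 -0.25 to 0.16. In NPC CAG length trend the ranges were Adarb1 -0.17 to 0.33, Qki -0.32 to 0.14. In the difference of CAG length trend between NPC and mESC the ranges were Adarb1 -0.0478 to 0.48. In the difference of KO against WT between NPC and mESC the ranges were Ilf2 -0.15 to 0.41, Adarb1 -0.40 to 0.19, Adar -0.66 to 0.0416, Htt -0.90 to 0.11, Qki -0.78 to 0.0456.

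Over all alternatives but the other reference, leaving out libraries included, whole-table counts were 0 to 3742 in the NPC trend (2909 as reported), 0 to 1577 in NPC KO against WT (188), 1569 to 6712 in NPC Q111 against Q20 (3743), 1618 to 6160 in NPC Q92 against Q20 (3407), 1258 to 3927 in NPC Q50 against Q20 (2478), 476 to 2846 in NPC Q20 against WT (1920), 2789 to 8977 in the NPC F test (5414), 0 to 1005 in the trend difference (599), 0 to 80 in the KO difference (5). The highest counts for NPC KO against WT and the KO difference came without NPC WT replicate 2. The counts of 0 in the NPC trend and in the trend difference came with 1 mean value per line.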
